A study of Mus musculus with 6 samples.

Results

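The osteoclast fusion and resorption genes described here are 10 genes that mark the formation and work of osteoclasts, the multinucleated cells that dissolve bone. They were taken by gene symbol from a table of 54532 genes, and all 10 were found. RNA was sequenced from CD11b-positive bone marrow cells taken from the tibias of mice aged 12 weeks, with 3 libraries labelled Tshr-/- and 3 labelled Tshr+/+ (wild type). The product of Tshr is the receptor for thyroid-stimulating hormone (TSH), and the study's title places the action of TSH on bone in AMPK signalling of osteoclasts. A second label calls the Tshr-/- animals a knockdown, and another gives osteoclast differentiation as a treatment, with no time and no culture step described. Background strain, sex and the part of Tshr that is changed are not given in the labels and whether each library holds 1 animal or a pool is not given either.

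Osteoclasts arise from myeloid precursors that receive M-CSF and RANKL. RANKL binds its receptor RANK, encoded by Tnfrsf11a, and drives the transcription factor NFATc1, encoded by Nfatc1. NFATc1 then turns on genes for cell fusion, such as Dcstamp and Ocstamp, and genes for attachment and resorption, such as Itgb3, Acp5 and Ctsk. Bone marrow cells that carry CD11b are mainly neutrophils and monocytes, and they include osteoclast precursors.

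The libraries held between 14698126 and 17976477 fragments, which were computed from the deposited FPKM, a level that is scaled for gene length and library size. Itgam, which encodes CD11b, had between 87.4 and 134 FPKM over the libraries labelled Tshr-/- and between 111 and 125 FPKM in Tshr+/+. Tshr had 0.414, 0.297 and 0.00825 FPKM in libraries 1, 2 and 3 labelled Tshr-/-, from 40, 25 and 1 fragments, against 0.537, 0.552 and 0.405 FPKM in Tshr+/+ 1, 2 and 3. The targeted gene was thus still counted in the libraries labelled Tshr-/- 1 and 2, which their label alone does not account for. The part of the gene that was changed is not given. Counts over the whole gene therefore cannot tell whether the label holds for these libraries. Every direction below is that of the labels. In such mixed cells, a lower number of cells of a type and less RNA per cell cannot be told apart.

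Of the 10 genes, 4 passed the filter, a minimum of 1 FPKM in 3 or more libraries: Acp5, Ctsk, Nfatc1 and Itgb3. Each of them reached 1 FPKM in all 6 libraries. The other 6 genes (Tnfrsf11a, Oscar, Dcstamp, Ocstamp, Siglec15 and Calcr) stayed below 1 FPKM in every library. Averaged over the 6 libraries, the 4 genes lay between 11.4 FPKM for Acp5 and 15.9 FPKM for Nfatc1, above 65.7% to 73.5% of the 10913 genes that passed the filter. Of the 6 low genes, Tnfrsf11a averaged 0.462 FPKM, Oscar 0.269 FPKM, Ocstamp 0.149 FPKM, Dcstamp 0.134 FPKM, Siglec15 0.112 FPKM and Calcr 0.00912 FPKM. With a minimum of 10 fragments in at least 3 libraries in place of the FPKM filter, 6 genes passed, with Tnfrsf11a and Ocstamp added.

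Ctsk and Acp5, the genes of bone matrix breakdown, varied between libraries more than most genes. Ctsk encodes cathepsin K, the protease that degrades bone collagen, and Acp5 encodes the tartrate-resistant acid phosphatase by which osteoclasts are stained. Ctsk (ENSMUSG00000028111, chromosome 3, 95499256 to 95509362 of GRCm38, plus strand) had 5.51, 37.4 and 6.43 FPKM in libraries 1, 2 and 3 labelled Tshr-/-, against 3.30, 7.90 and 15.1 FPKM in Tshr+/+ 1, 2 and 3. The groups overlapped, and the library labelled Tshr-/- 2 stood above all others, followed by Tshr+/+ 3. Acp5 (ENSMUSG00000001348, chromosome 9, 22126727 to 22135711, minus strand) had 6.80, 29.7 and 8.92 FPKM in libraries 1, 2 and 3 labelled Tshr-/-, against 5.12, 6.10 and 11.8 FPKM in Tshr+/+ 1, 2 and 3. The same pair of libraries was on top and Tshr+/+ 1 was lowest for both genes.

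The height of the library labelled Tshr-/- 2 was larger than counting error. Its 793 fragments of Ctsk gave an exact 95% Poisson interval of 34.8 to 40.1 FPKM, and the 421 fragments of Tshr+/+ 3 one of 13.7 to 16.6 FPKM. For Acp5 the intervals were 27.7 to 31.7 FPKM from 844 fragments and 10.8 to 12.98 FPKM from 444 fragments. The highest library was 2.48 times the next for Ctsk and 2.51 times for Acp5. From the highest to the lowest library the ratio was 11.3 for Ctsk and 5.79 for Acp5. These intervals cover counting error only.

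**Figure D1:**
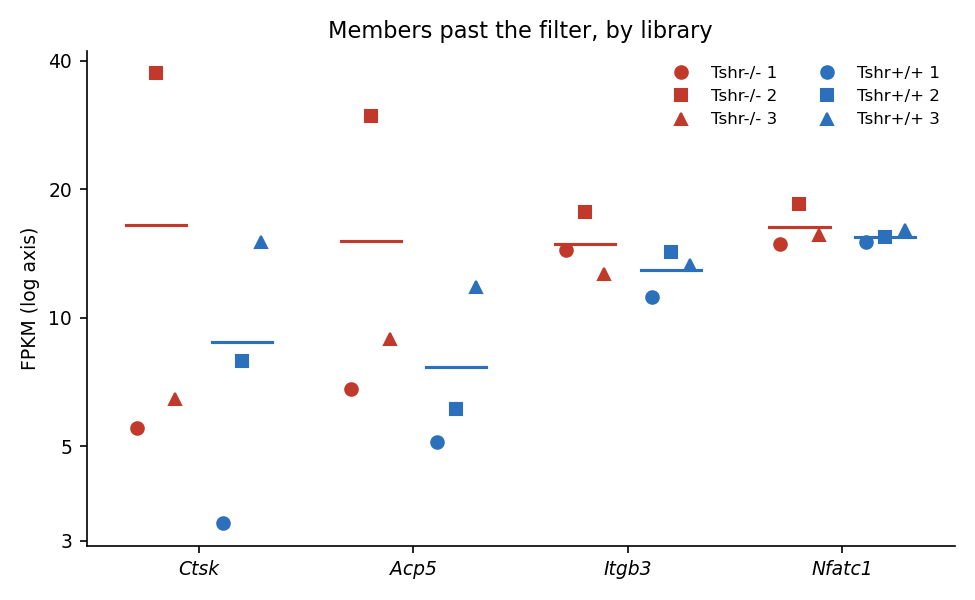
FPKM of Ctsk, Acp5, Itgb3 and Nfatc1 on a log axis in the 3 libraries labelled Tshr-/- (red) and the 3 Tshr+/+ libraries (blue), with 1 symbol a library and a bar at each group mean. Ctsk and Acp5 range over 3.30 to 37.4 and 5.12 to 29.7 FPKM with the library labelled Tshr-/- 2 on top, while Itgb3 and Nfatc1 stay between 11.2 and 18.5 FPKM.

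The spread of Ctsk within the groups was 1.21 (SD of log2(FPKM + 1), pooled over both groups), the 18th highest of the 10913 genes. That of Acp5 was 0.85, at rank 168, and the median over all genes was 0.19. Itgb3 had a spread of 0.20, higher than that of 53.6% of the genes, and Nfatc1 had 0.11, higher than that of 20.4%. By the gap on the log2 scale between the library labelled Tshr-/- 2 and the highest of the other 5, a measure chosen after the values were seen, Ctsk ranked 3rd and Acp5 4th of 10913, with gaps of 1.26 and 1.26.

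Itgb3 and Nfatc1, which act before resorption, held steadier levels. Itgb3 encodes the beta 3 integrin chain by which osteoclasts grip bone, a chain that megakaryocytes and platelets also carry. It lies on chromosome 11 from 104608000 to 104670476 on the plus strand and had 14.4, 17.6 and 12.6 FPKM in libraries 1, 2 and 3 labelled Tshr-/-, against 11.2, 14.3 and 13.3 FPKM in Tshr+/+ 1, 2 and 3. Nfatc1 lies on chromosome 18 from 80606205 to 80713071 on the minus strand and had 14.8, 18.5 and 15.6 FPKM in libraries 1, 2 and 3 labelled Tshr-/-, against 15.1, 15.4 and 16.0 FPKM in Tshr+/+ 1, 2 and 3. Both had their highest value in the library labelled Tshr-/- 2, and the groups overlapped for both. The highest library was 1.58 times the lowest for Itgb3 and 1.24 times for Nfatc1.

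Markers of megakaryocytes and platelets were present beside Itgb3. Their alpha chain partner Itga2b had 4.89, 3.10 and 3.07 FPKM in libraries 1, 2 and 3 labelled Tshr-/-, against 4.28, 3.20 and 3.04 FPKM in Tshr+/+ 1, 2 and 3. Of 10 genes on that list 4 passed the filter and Gp1bb was listed at 0 in every library. Its summed level was 12.6 to 26.0 FPKM over the libraries labelled Tshr-/- and 11.85 to 20.4 FPKM in Tshr+/+, with the highest sum in the library labelled Tshr-/- 1 and not in Tshr-/- 2. Their part in the level of Itgb3 was not tested.

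The receptor RANK was low in all libraries and was the only one of the 10 genes without overlap between the groups. Tnfrsf11a (chromosome 1, 105780718 to 105847981, plus strand) had 0.467, 0.548 and 0.730 FPKM in libraries 1, 2 and 3 labelled Tshr-/-, against 0.353, 0.252 and 0.425 FPKM in Tshr+/+ 1, 2 and 3. The means were 0.582 ± 0.134 FPKM among Tshr-/- libraries and 0.343 ± 0.0866 FPKM among Tshr+/+ ones (SD, n = 3 each; exact two-sided permutation test, p = 0.1, the smallest that 3 against 3 libraries allow). On whole fragments, the voom method of limma gave a log2 fold change of 0.77 ± 0.31 (SE) with an unadjusted p of 0.0359 and an adjusted p of 0.99992 over 13709 genes. The Tshr-/- libraries lay above the Tshr+/+ ones without overlap for 3.39% of those genes. In either direction, the groups did not overlap for 6.77% of the 10913 genes past the FPKM filter, which Tnfrsf11a did not pass. The 45, 46 and 88 fragments in the libraries labelled Tshr-/- against 36, 25 and 47 in Tshr+/+ limit its precision.

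Oscar and Dcstamp, although scarce, were also highest in the library labelled Tshr-/- 2. Oscar encodes an immunoglobulin-like receptor that co-stimulates osteoclast precursors, and Dcstamp a membrane protein needed for precursors to fuse. Oscar (chromosome 7, 3609813 to 3616157, minus strand) had 3, 22 and 9 fragments in the libraries labelled Tshr-/- 1, 2 and 3, or 0.101, 0.849 and 0.242 FPKM, against 3, 2 and 9 fragments in Tshr+/+ 1, 2 and 3, or 0.0953, 0.0654 and 0.263 FPKM. The interval of the library labelled Tshr-/- 2, from 0.532 to 1.29 FPKM, lay above those of all 5 other libraries, the highest of which ended at 0.5001 FPKM. Dcstamp (chromosome 15, 39745930 to 39760938, plus strand) had 1, 17 and 7 fragments in the libraries labelled Tshr-/- 1, 2 and 3, or 0.0233, 0.455 and 0.130 FPKM, against 2, 3 and 4 fragments in Tshr+/+ 1, 2 and 3, or 0.0441, 0.0680 and 0.0812 FPKM. Its interval in the library labelled Tshr-/- 2, from 0.265 to 0.729 FPKM, began just below the end of that of Tshr-/- 3 at 0.269 FPKM. For both genes the exact two-sided permutation test on the group means gave p = 0.4 (n = 3 each).

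The other fusion gene did not share this order. Ocstamp, which encodes a membrane protein that acts with the Dcstamp product in fusion (chromosome 2, 165393760 to 165400405, minus strand), had 2, 11 and 5 fragments in the libraries labelled Tshr-/- 1, 2 and 3, against 18, 12 and 6 in Tshr+/+ 1, 2 and 3. Its highest value was 0.289 FPKM in Tshr+/+ 1, the library that was lowest for Ctsk and Acp5. Of the 10 genes it was the only one with a lower mean in Tshr-/-, at 0.105 ± 0.0960 FPKM against 0.192 ± 0.1002 FPKM in Tshr+/+ (SD, n = 3 each; exact two-sided permutation test, p = 0.3).

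Siglec15 and Calcr were at the limit of detection. Siglec15 encodes a sialic acid receptor that signals through the adaptor Tyrobp in osteoclasts, and Calcr the calcitonin receptor, a mark of mature osteoclasts. Siglec15 (chromosome 18, 78043614 to 78057395, minus strand) had 4, 3 and 3 fragments in the libraries labelled Tshr-/- 1, 2 and 3, against 0, 0 and 3 in Tshr+/+ 1, 2 and 3 (exact two-sided permutation test on FPKM, p = 0.2, n = 3 each). Calcr (chromosome 6, 3685680 to 3764714, minus strand) had 3 fragments in the library labelled Tshr-/- 2, or 0.0547 FPKM, and 0 in the other 5 libraries, where a count of 0 allows up to 3 fragments. No difference was detectable for either gene at this depth.

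**Figure D2:**
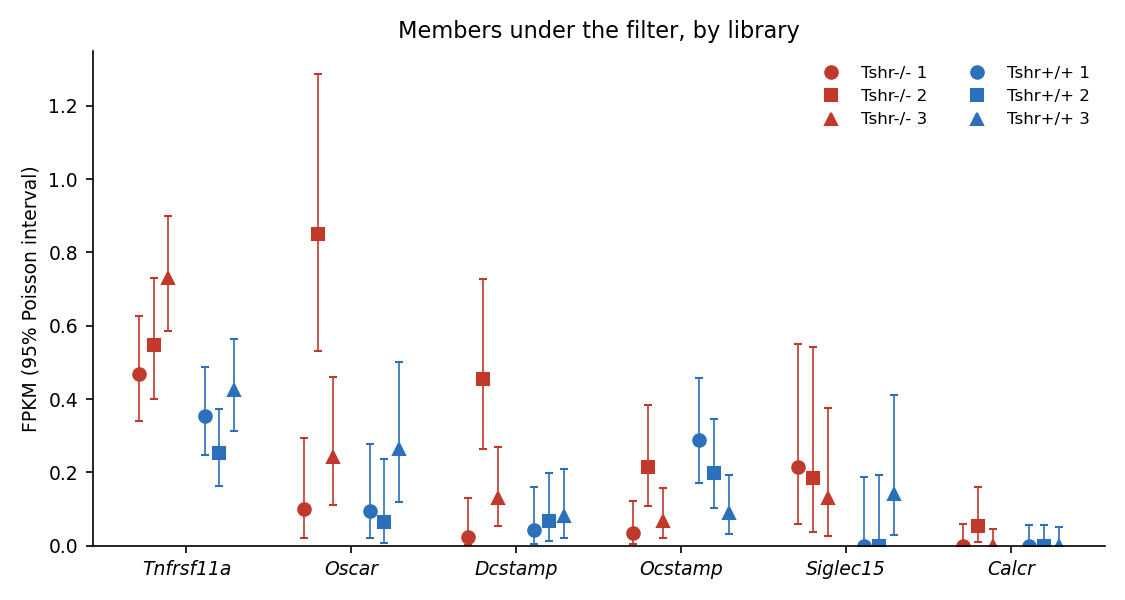
FPKM of the 6 genes under 1 FPKM in each library labelled Tshr-/- (red) and each Tshr+/+ library (blue), with exact 95% Poisson intervals that cover counting error only. Oscar and Dcstamp are highest in the library labelled Tshr-/- 2 at 0.849 and 0.455 FPKM, Tnfrsf11a in Tshr-/- 3 at 0.730 FPKM and Ocstamp in Tshr+/+ 1 at 0.289 FPKM.

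In all, 7 of the 10 genes had their highest value in the library labelled Tshr-/- 2: Ctsk, Acp5, Nfatc1, Itgb3, Oscar, Dcstamp and Calcr. That library held the highest value for 17% of the 10913 genes past the filter and for 19% of the genes under it that had any fragment. The order with that library first and Tshr+/+ 3 second was found for Ctsk, Acp5, Nfatc1 and Oscar, against 4.87% of the genes past the filter. After each library was rescaled to an equal FPKM total, 6 genes had their highest value in Tshr-/- 2, against 6.96% of the genes past the filter. Nfatc1 was then highest in the library labelled Tshr-/- 3, as were 50.7% of the genes past the filter, against 18.3% as deposited. The rescaling thus moved the background share as well as the genes described here. The order with Tshr+/+ 3 second was then found for 2 of the 10 genes, Ctsk and Acp5, against 1.74%. These counts were chosen after the values were seen, and the genes share libraries, so that they are not independent of each other.

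Ctsk, Acp5, Oscar and Nfatc1 had the same highest library, Tshr-/- 2, and the same second, Tshr+/+ 3, as deposited. The promoters of Ctsk, Acp5 and Oscar are shown for this reason, and no RefSeq window was found for Nfatc1. For Oscar the second place rests on 9 fragments in Tshr+/+ 3 against 9 in the library labelled Tshr-/- 3, and it was lost with equal totals. Each stretch is the 250 bases before a transcription start of RefSeq on GRCm38.p6, read along the strand of the gene. RefSeq windows were found for 5 of the 10 genes. Capitals mark TGGAAA, a core sequence that NFAT proteins can bind, and CATGTG, an E-box form that the osteoclast factor MITF can bind, on either strand. Ctsk lies at chr3:95498960-95499209 on the plus strand, Acp5 at chr9:22130599-22130848 on the minus strand and Oscar at chr7:3616158-3616407 on the minus strand.
Ctsk: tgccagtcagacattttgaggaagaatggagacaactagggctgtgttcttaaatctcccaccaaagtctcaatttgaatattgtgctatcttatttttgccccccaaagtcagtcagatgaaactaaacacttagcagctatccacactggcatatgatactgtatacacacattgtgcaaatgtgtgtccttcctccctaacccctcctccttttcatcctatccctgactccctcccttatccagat
Acp5: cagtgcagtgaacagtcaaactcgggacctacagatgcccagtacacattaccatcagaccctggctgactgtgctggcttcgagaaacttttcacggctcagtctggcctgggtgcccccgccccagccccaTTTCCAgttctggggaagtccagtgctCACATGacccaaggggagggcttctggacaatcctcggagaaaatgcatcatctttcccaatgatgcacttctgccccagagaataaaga
Oscar: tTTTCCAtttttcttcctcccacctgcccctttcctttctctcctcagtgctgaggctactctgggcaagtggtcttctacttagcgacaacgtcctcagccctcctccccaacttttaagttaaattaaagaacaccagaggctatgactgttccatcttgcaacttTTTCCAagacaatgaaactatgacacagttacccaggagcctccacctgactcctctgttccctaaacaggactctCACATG

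The Acp5 window, of the start farthest downstream among 3, held 1 TGGAAA that begins 117 bases before the start and 1 CATGTG at 90 bases, both on the reverse strand. The windows of the other two Acp5 starts held neither, which is why they are not shown. The Oscar window held 2 TGGAAA, at 249 and 82 bases before the start, and 1 CATGTG at 6 bases, all on the reverse strand. The Ctsk window held neither of these letter strings. Of 32851 RefSeq windows of the same length, 18.6% held TGGAAA and 12.3% CATGTG. The string TGANTCA, to which AP-1 proteins such as FOS and JUN can bind, was in none of the windows of these genes and in 6.75% of all windows. A match describes the sequence and does not show binding.

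Over the 4 genes past the filter, 6 pairs were compared with two-sided tests for joint variation across the 6 libraries on the log2(FPKM + 1) scale. Ctsk and Acp5 had a Pearson r of 0.955 (exact permutation p = 0.00694, 0.0167 after Benjamini-Hochberg adjustment over the 6 pairs) and a Spearman rho of 0.829 (exact permutation p = 0.0583, adjusted 0.117). Acp5 and Nfatc1 had an r of 0.965 (exact permutation p = 0.00833, adjusted 0.0167) and a rho of 0.829 (p = 0.0583, adjusted 0.117). Ctsk and Nfatc1 had an r of 0.937 (exact permutation p = 0.00833, adjusted 0.0167) and a rho of 0.886 (p = 0.0333, adjusted 0.117). The pairs with Itgb3 had r values of 0.773 with Acp5, 0.827 with Ctsk and 0.750 with Nfatc1, with adjusted permutation p of 0.103, 0.0708 and 0.122. Their rho values were 0.543, 0.600 and 0.257, with adjusted permutation p of 0.357, 0.357 and 0.658.

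These relations rested on few libraries. Without the libraries labelled Tshr-/- 2 and Tshr+/+ 3, the farthest from the median of Acp5, r was 0.551 for Acp5 with Ctsk (exact permutation p = 0.458, n = 4) and 0.546 for Acp5 with Nfatc1 (p = 0.5). For Ctsk with Nfatc1 it was 0.554 (exact permutation p = 0.5, n = 4). Without the library labelled Tshr-/- 2 alone, r was 0.848 for Acp5 with Ctsk (exact permutation p = 0.0667, n = 5), 0.814 for Acp5 with Nfatc1 (p = 0.1) and 0.825 for Ctsk with Nfatc1 (p = 0.075). With the group means removed, r was 0.972 for Acp5 with Ctsk, 0.969 for Acp5 with Nfatc1 and 0.934 for Ctsk with Nfatc1 (exact permutation within groups, p = 0.0278 each). Rescaling each library to an equal FPKM total left r at 0.947 for Acp5 with Ctsk (exact permutation p = 0.00417, n = 6), while r was 0.691 for Acp5 with Nfatc1 (p = 0.121) and 0.526 for Ctsk with Nfatc1 (p = 0.315).

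**Figure D3:**
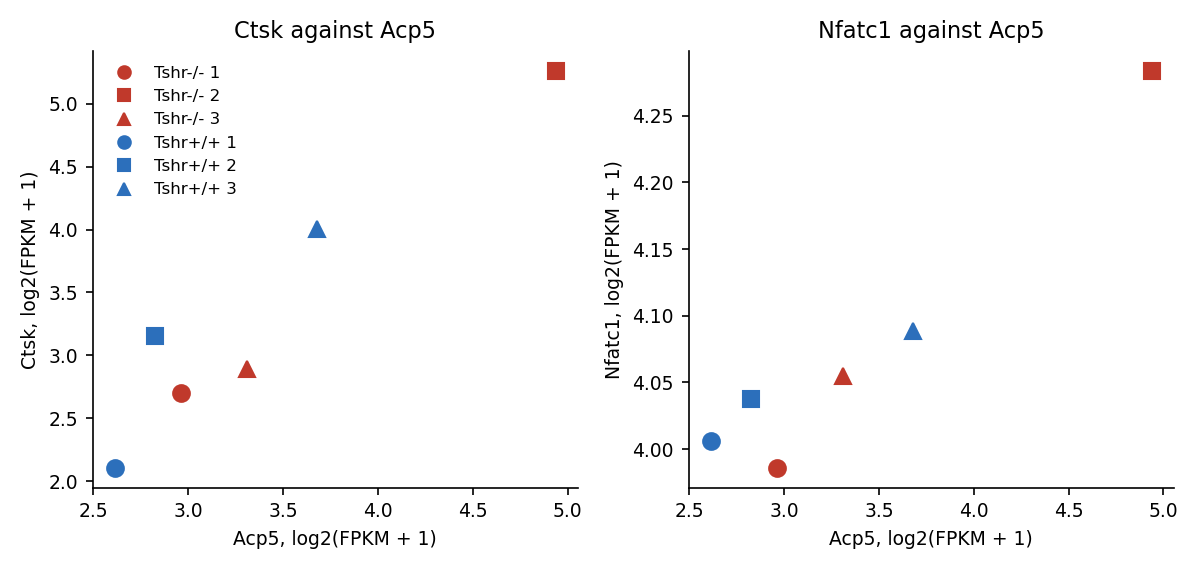
log2(FPKM + 1) of Ctsk (left) and Nfatc1 (right) against that of Acp5, with 1 symbol a library (red labelled Tshr-/-, blue Tshr+/+). The library labelled Tshr-/- 2 lies at the upper right of both panels and Tshr+/+ 3 next to it, with r of 0.955 and 0.965, and the vertical scale of Nfatc1 spans only a 1.24-fold range of FPKM.

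The ratio of Ctsk to Acp5 within a library, which no scaling between libraries can change, was 0.810, 1.26 and 0.721 in the libraries labelled Tshr-/- 1, 2 and 3, against 0.645, 1.30 and 1.27 in Tshr+/+ 1, 2 and 3. Ctsk thus exceeded Acp5 per length in 3 libraries, of both labels. The ratio of Acp5 to Itgb3 was 0.471, 1.68 and 0.705 in the libraries labelled Tshr-/- 1, 2 and 3, against 0.458, 0.427 and 0.892 in Tshr+/+ 1, 2 and 3. Acp5 therefore exceeded Itgb3 in the library labelled Tshr-/- 2 alone.

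Among 973 other genes with a range of at least 1 log2 unit, those most like Acp5 and Ctsk by Pearson r over the 6 libraries were ranked, and the first 5 for each are named. Ckb, the brain form of creatine kinase, which regenerates ATP, came first for both, with r of 0.973 to Ctsk and 0.951 to Acp5. It had 3.26, 10.4 and 4.39 FPKM in libraries 1, 2 and 3 labelled Tshr-/-, against 3.51, 4.36 and 6.78 FPKM in Tshr+/+ 1, 2 and 3. Atp6v0a1, a subunit of the vacuolar proton pump that acidifies lysosomes, had r of 0.965 to Ctsk and 0.944 to Acp5. Its values were 15.0, 23.3 and 15.3 FPKM in libraries 1, 2 and 3 labelled Tshr-/-, against 11.1, 14.5 and 18.6 FPKM in Tshr+/+ 1, 2 and 3. Both genes were highest in the library labelled Tshr-/- 2 and second in Tshr+/+ 3.

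The ankyrin repeat gene Ankrd13d was the third gene named for both, with r of 0.951 to Ctsk and 0.950 to Acp5. For Acp5 the rule also named the immunoglobulin segment Ighv1-64 (r of 0.937) and Trp53i13 (r of 0.919). For Ctsk it named Ltb, the lymphotoxin beta gene of lymphocytes (r of 0.958), and Mov10, an RNA helicase gene (r of 0.936). All 7 named genes were highest in the library labelled Tshr-/- 2. Without that library r was 0.912 for Ckb with Ctsk and 0.925 for Atp6v0a1 with Ctsk, but 0.465 for Trp53i13 with Acp5. These r values describe 6 libraries and were the highest of 973, so they carry no test.

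**Figure D4:**
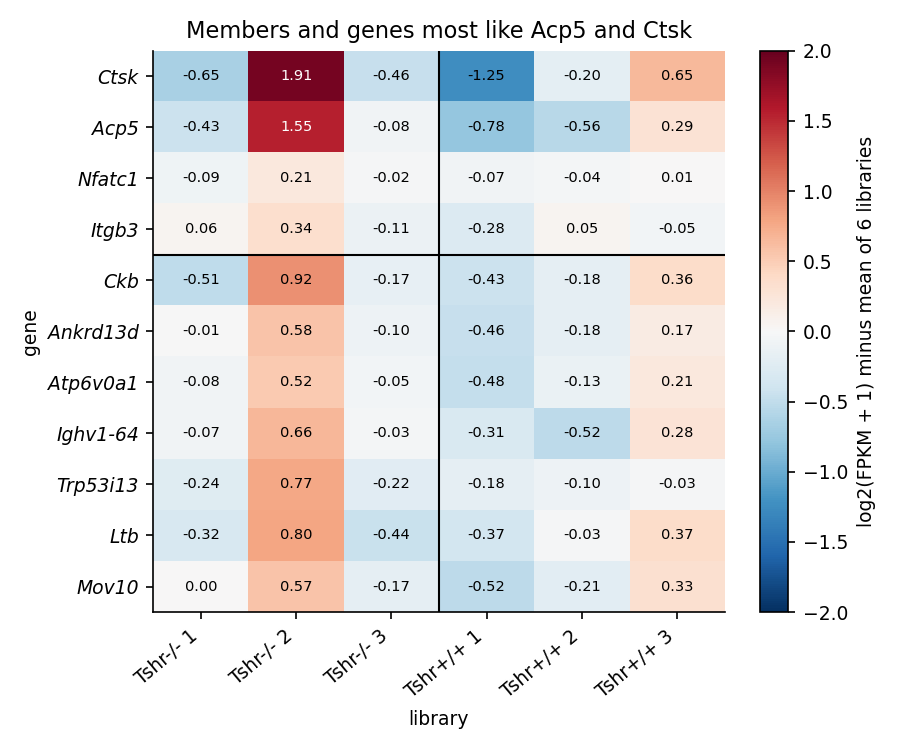
log2(FPKM + 1) minus the mean over the 6 libraries for the 4 genes past the filter (upper rows) and the 7 genes most like Acp5 and Ctsk (lower rows), libraries labelled Tshr-/- on the left and Tshr+/+ on the right. The library labelled Tshr-/- 2 is positive in every row, from 0.21 for Nfatc1 to 1.91 for Ctsk, and Tshr+/+ 3 is 0.65 for Ctsk and 0.36 for Ckb.

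Between the groups, none of the 4 genes past the filter differed past the threshold. In limma over 10913 genes, 0 of the 4 had an adjusted p under 0.05, against 0% of all genes tested. At an unadjusted p under 0.05 stood 317 genes, none of the 4 among them. Voom on whole fragments called 0 genes, and limma with array weights, where noisier libraries count less, called 24 genes or 0.22%, with none of the 4 among them. The log2 fold change was 0.70 ± 0.53 (SE) for Acp5 with a 95% interval of -0.57 to 1.97, and 0.53 ± 0.76 (SE) for Ctsk with an interval of -1.28 to 2.34. It was 0.19 ± 0.15 (SE) for Itgb3 with an interval of -0.17 to 0.55, and 0.06 ± 0.11 (SE) for Nfatc1 with an interval of -0.20 to 0.33. The limma adjusted p was 0.9997 for each of the 4. The intervals of Acp5 and Ctsk hold both 0 and a log2 fold change of 1, so that these data do not show the groups to be alike.

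The higher means of Acp5 and Ctsk in Tshr-/- came from the library labelled Tshr-/- 2. Acp5 averaged 15.1 ± 12.6 FPKM among Tshr-/- libraries and 7.68 ± 3.62 FPKM among Tshr+/+ ones, and Ctsk averaged 16.4 ± 18.2 FPKM among Tshr-/- libraries and 8.75 ± 5.92 FPKM among Tshr+/+ ones (SD, n = 3 each). Without that library the Tshr-/- mean was 7.86 FPKM for Acp5 and 5.97 FPKM for Ctsk. The fitted log2 fold change was then 0.10 ± 0.34 (SE) for Acp5, -0.29 ± 0.54 (SE) for Ctsk, 0.07 ± 0.14 (SE) for Itgb3 and -0.02 ± 0.10 (SE) for Nfatc1. Leaving out Tshr+/+ 3 gave 1.02 ± 0.56 (SE) for Acp5 and 0.99 ± 0.80 (SE) for Ctsk, and leaving out Tshr+/+ 1 gave 0.04 ± 0.79 (SE) for Ctsk. Leaving out the library labelled Tshr-/- 1 gave 1.08 ± 0.54 (SE) for Acp5 and 0.99 ± 0.82 (SE) for Ctsk, and leaving out Tshr-/- 3 gave 0.89 ± 0.85 (SE) for Ctsk and 0.29 ± 0.16 (SE) for Itgb3. Without the libraries labelled Tshr-/- 1 and 2, in which Tshr was still present, the values were 0.27 ± 0.46 (SE) for Acp5, -0.19 ± 0.75 (SE) for Ctsk, -0.02 ± 0.20 (SE) for Itgb3 and 0.01 ± 0.15 (SE) for Nfatc1, where the lone Tshr-/- library is assumed to vary like the others.

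**Figure D5:**
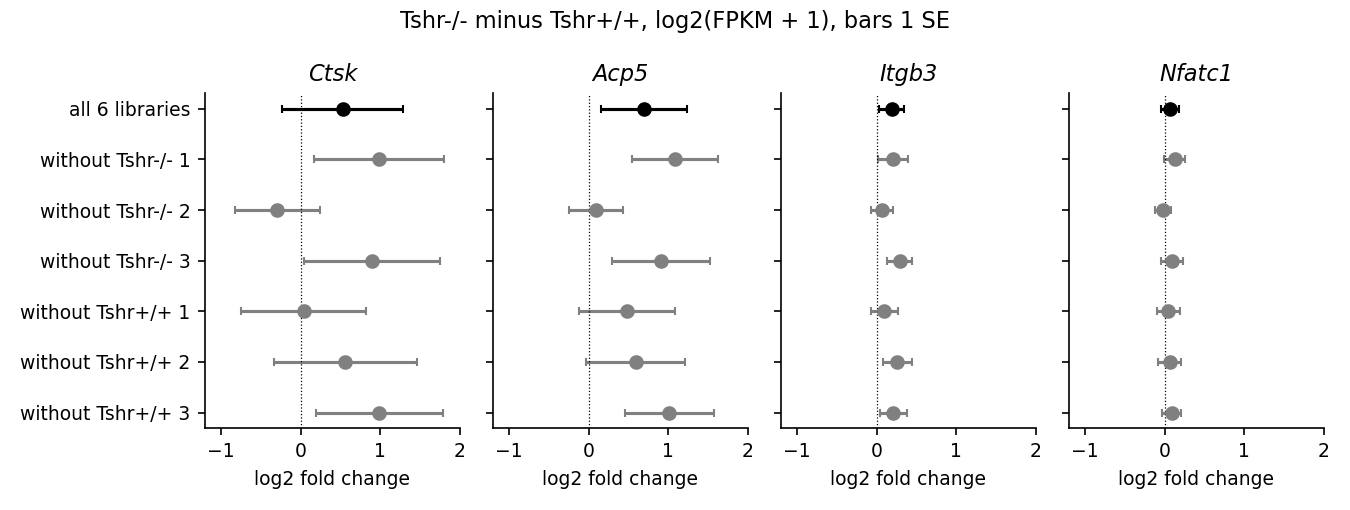
Log2 fold change of Tshr-/- minus Tshr+/+ on the log2(FPKM + 1) scale (horizontal axis, bars 1 SE) with all 6 libraries (black) and with each library left out (grey). Ctsk lies at 0.53 with all libraries and at -0.29 without the library labelled Tshr-/- 2, and Acp5 at 0.70 and 0.10, while Itgb3 and Nfatc1 stay between -0.02 and 0.29.

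Most of the further osteoclast machinery genes passed the filter in these mixed cells, and none of these differed past the threshold. Their presence does not show that osteoclasts were there, and Atp6v0d2, Mmp14, Src and Sh3pxd2a stayed under the filter. Of 20 further genes of acid secretion, matrix breakdown and fusion, 16 passed the filter, 8 with a higher and 8 with a lower mean log2 value in Tshr-/-, and 0 were called. Their median log2 fold change was -0.003, beside -0.01 over all genes tested. Of all 10913 genes tested, 5138 had a higher and 5775 a lower mean log2 value in Tshr-/-. Mmp9, a matrix metalloprotease that neutrophils also store, was the most abundant with 1086 ± 307 FPKM among Tshr-/- libraries and 1055.5 ± 50.5 FPKM among Tshr+/+ ones (SD, n = 3 each). Snx10, a sorting nexin needed for resorption, had 8.31 ± 0.310 FPKM among Tshr-/- libraries and 7.03 ± 0.681 FPKM among Tshr+/+ ones and was the only one without overlap, against 6.77% of all genes tested. Clcn7, the chloride transporter of the resorbing membrane, had 6.64 ± 0.943 FPKM among Tshr-/- libraries and 5.85 ± 0.858 FPKM among Tshr+/+ ones. Unlike Acp5 and Ctsk, the proton pump gene Tcirg1, named after its values were seen, ranged only from 73.7 to 77.8 FPKM over the libraries labelled Tshr-/- and from 77.8 to 83.5 FPKM in Tshr+/+.

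Of the 20 genes, 7 were highest in the library labelled Tshr-/- 2. The 4 genes of the list under the filter, named after their values were seen, did not share 1 order. Atp6v0d2, a proton pump subunit that also acts in fusion, had 17, 44 and 23 fragments in the libraries labelled Tshr-/- 1, 2 and 3, or 0.389, 1.16 and 0.420 FPKM, against 13, 7 and 27 fragments in Tshr+/+ 1, 2 and 3, or 0.281, 0.156 and 0.537 FPKM. Mmp14, a membrane-bound metalloprotease, had 0.240, 0.754 and 0.416 FPKM in libraries 1, 2 and 3 labelled Tshr-/-, against 0.246, 0.354 and 0.463 FPKM in Tshr+/+ 1, 2 and 3. Both were highest in the library labelled Tshr-/- 2 and second in Tshr+/+ 3. Src, a kinase needed for resorption, had 0.384, 0.408 and 0.284 FPKM in libraries 1, 2 and 3 labelled Tshr-/-, against 0.483, 0.456 and 0.210 FPKM in Tshr+/+ 1, 2 and 3. Sh3pxd2a, a scaffold gene of podosomes, had 0.119, 0.191 and 0.379 FPKM in libraries 1, 2 and 3 labelled Tshr-/-, against 0.381, 0.254 and 0.258 FPKM in Tshr+/+ 1, 2 and 3. Src and Sh3pxd2a were highest in Tshr+/+ 1, but Src was close behind in Tshr+/+ 2 and Sh3pxd2a in the library labelled Tshr-/- 3. Their top library is therefore uncertain at these low levels.

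Receptors and signalling genes of osteoclast precursors were mostly on. Of 20 such genes 19 passed the filter, with 0 called and a median log2 fold change of -0.07. The mean log2 value in Tshr-/- was higher for 4 and lower for 15, beside 5138 higher and 5775 lower of all genes tested. The genes share libraries, so these directions are not independent of each other. Tyrobp, the adaptor of co-stimulating receptors, was the most abundant with 1271 ± 228 FPKM among Tshr-/- libraries and 1259 ± 95.9 FPKM among Tshr+/+ ones (SD, n = 3 each). Fcer1g, the adaptor through which the Oscar product signals, had 516 ± 46.0 FPKM among Tshr-/- libraries and 682 ± 97.6 FPKM among Tshr+/+ ones, without overlap (limma log2 fold change -0.40 ± 0.15 SE, unadjusted p = 0.0343, adjusted p = 0.9997). It was the only 1 of the 19 without overlap, against 6.77% of all genes tested. The kinase gene Btk had 27.3 ± 2.02 FPKM among Tshr-/- libraries and 23.9 ± 4.68 FPKM among Tshr+/+ ones. Csf1r, the M-CSF receptor gene, named after its values were seen, had 43.9, 41.9 and 64.5 FPKM in libraries 1, 2 and 3 labelled Tshr-/-, against 49.1, 46.4 and 55.7 FPKM in Tshr+/+ 1, 2 and 3. It was thus lowest in the library where Ctsk and Acp5 were highest.

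Of 13 transcription factors of osteoclast formation, all 13 passed the filter, 6 with a higher and 7 with a lower mean log2 value in Tshr-/-, with 0 called and a median of -0.005. Fos, an AP-1 component that osteoclast formation requires, was the most abundant with 730 ± 175 FPKM among Tshr-/- libraries and 701 ± 329 FPKM among Tshr+/+ ones (SD, n = 3 each). Myc had 5.34 ± 1.42 FPKM among Tshr-/- libraries and 4.31 ± 0.173 FPKM among Tshr+/+ ones, and Jdp2, another AP-1 family member, 64.0 ± 4.86 FPKM among Tshr-/- libraries and 75.4 ± 19.1 FPKM among Tshr+/+ ones. Of 15 brakes on osteoclast formation 14 passed, 8 with a higher and 6 with a lower mean log2 value in Tshr-/-, with 0 called and a median of 0.06. Among them Nfkbia, the inhibitor of NF-kB, was the most abundant with 306 ± 144 FPKM among Tshr-/- libraries and 301 ± 148 FPKM among Tshr+/+ ones. Id1, an inhibitor of helix-loop-helix factors, had 33.2 ± 5.53 FPKM among Tshr-/- libraries and 45.5 ± 6.56 FPKM among Tshr+/+ ones, and Pirb, an inhibitory receptor, 106 ± 7.07 FPKM among Tshr-/- libraries and 92.6 ± 2.59 FPKM among Tshr+/+ ones. Pirb and Traf3 were the 2 genes of those 14 without overlap, against 6.77% of all genes tested.

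No list of markers of other cells had its highest sum in the library labelled Tshr-/- 2 and its second in Tshr+/+ 3, the order of Ctsk and Acp5. Neither did the lists of further osteoclast machinery, receptors, transcription factors and brakes. The machinery list, for example, summed to 2846 FPKM in the library labelled Tshr-/- 2 and 2641 FPKM in Tshr+/+ 2. Each sum is led by the most abundant genes of its list, such as Mmp9 in the machinery list. The sums therefore cannot show the order of scarcer genes. The summed level of 16 genes of resident macrophages, cells that also express Acp5, was 249.5, 287 and 378.5 FPKM in libraries 1, 2 and 3 labelled Tshr-/-, against 422, 325 and 369 FPKM in Tshr+/+ 1, 2 and 3, with 15 of 16 past the filter. Of 10 monocyte genes all 10 passed, with sums of 1204, 1063 and 1167 FPKM in libraries 1, 2 and 3 labelled Tshr-/-, against 1033, 1084 and 1060 FPKM in Tshr+/+ 1, 2 and 3. The library labelled Tshr-/- 2 was the highest for 0 of the 16 macrophage genes and 0 of the 10 monocyte genes. Of 15 stromal and osteoblast genes 4 passed and 6 were highest in the library labelled Tshr-/- 2, with sums of 27.6 to 52.1 FPKM over the libraries labelled Tshr-/- and 23.2 to 59.8 FPKM in Tshr+/+. The 6 basophil and mast cell genes past the filter, of 7, were all higher in mean log2 value in Tshr-/-, beside 5138 of the 10913 genes tested. Genes of 1 list share libraries and are not independent of each other. That list summed to 174, 175 and 103 FPKM in libraries 1, 2 and 3 labelled Tshr-/-, against 85.3, 83.45 and 146 FPKM in Tshr+/+ 1, 2 and 3. The 10 neutrophil genes summed to between 89740 and 135800 FPKM over the libraries labelled Tshr-/- and between 109800 and 133800 FPKM in Tshr+/+, and 5 of the 10 were highest in the library labelled Tshr-/- 2. The part of these cells in the values of the osteoclast genes was not tested. Tnfsf11, which encodes RANKL, had between 1 and 4 fragments in the libraries labelled Tshr-/- and between 0 and 2 in Tshr+/+.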

How the data were processed

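The authors deposited 1 table of FPKM values, 1 row a gene and 1 column a library; per the submitters' processing notes the genome build was GRCm38 (mm10). The sources used here name no aligner, counting tool or strand setting. Columns headed WT and HO were read as Tshr+/+ and Tshr-/-, each number as that of the title; HO is not spelled out. Deposited FPKM times the deposited gene length were whole multiples of 1 step in 100% of values within 0.01 of a fragment, so fragments were computed. Of the 10 gene models, only those of Acp5 and Calcr overlap another gene in the table, listed at 0 FPKM in every library.

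The main fit used limma 3.58.1 in R 4.3.3 on log2(FPKM + 1) of the 10913 genes that reached 1 FPKM in 3 or more of the 6 libraries (linear model by group, empirical Bayes with trend, two-sided, Benjamini-Hochberg adjustment over all genes, threshold 0.05). This scale understates changes of low genes. The code of the fit was run on simulated counts with the same dispersion for every gene. That run therefore does not speak for genes as variable as Ctsk and Acp5. Genes under the filter were compared by exact permutation tests in scipy 1.17.1. Nothing says that libraries of a group came from separate cultures beyond their numbers, so p-values measure the spread between these libraries.

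Same-numbered libraries of both groups deviated together (correlation of deviations 0.243, 0.262 and 0.468 for numbers 1, 2 and 3), although Tshr-/- 1 correlated more with Tshr+/+ 2 (0.344). Every same-numbered value was over 0.1, so the replicate number was fitted as a block in an alternative, and not in the main fit. These values do not settle whether libraries are paired, and the labels do not say what the number marks. Alternatives were other pseudocounts, filters and scalings, robust moderation, array weights, the replicate block, voom and each library left out. Members and lists were chosen with earlier results of these data known. Named were all 10 genes, the 5 genes with the highest r to Acp5 and to Ctsk (mean of at least 1 FPKM, no predicted models), and from each list of the osteoclast pathway any called member, or otherwise the most abundant one and the 2 of lowest p. Lists of other cell types are given by sums and counts.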

Additional observations from a re-analysis of the deposited data

How the results depend on the processing

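Among the genes that each alternative tested, which were 4 of the 10 in most, 6 with voom and all 10 without the filter, 0 were called, and Acp5 kept a higher mean in Tshr-/- under all 18, with log2 fold changes between 0.10 and 1.08. Ctsk turned to -0.29 without the library labelled Tshr-/- 2 and to -0.19 without the libraries labelled Tshr-/- 1 and 2; that omission was added once values had been seen. Nfatc1 turned to -0.023 without the library labelled Tshr-/- 2 and to -0.0063 with array weights, and Itgb3 to -0.021 without the libraries labelled Tshr-/- 1 and 2. With each library left out in turn Ctsk ranged from -0.29 to 0.9907, Nfatc1 from -0.023 to 0.126, Itgb3 from 0.07 to 0.29 and Acp5 from 0.10 to 1.08. Over all genes, array weights called 24, and leaving out a library called between 0 and 2, the 2 without the library labelled Tshr-/- 3. With the replicate number as a block 0 genes were called, and it changed no other call; the block gave 0.70 ± 0.46 (SE) for Acp5 and 0.53 ± 0.58 (SE) for Ctsk. A minimum of 10 fragments in place of 1 FPKM counted 6 of the 10 genes as detected. Without the libraries farthest from the median, r was 0.551 for Acp5 with Ctsk, 0.546 for Acp5 with Nfatc1, 0.554 for Ctsk with Nfatc1 and 0.792 for Ctsk with Itgb3. With group means removed, r was 0.834 for Ctsk with Itgb3 (exact permutation p = 0.139). With equal FPKM totals, chosen after seeing the data, r was 0.691 for Acp5 with Nfatc1, 0.526 for Ctsk with Nfatc1 and 0.789 for Ctsk with Itgb3. The correlations without the farthest libraries rest on 4 samples; the other causes were not tested. Depth limits Oscar, Dcstamp, Ocstamp, Siglec15 and Calcr, which had 3 to 54 fragments over all 6 libraries.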

Other observations

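Outside the osteoclast genes, the widest gap between the library labelled Tshr-/- 2 and the others was that of Eno1b, a retrotransposed enolase gene. It had 14.05, 82.1 and 15.1 FPKM in libraries 1, 2 and 3 labelled Tshr-/-, against 16.9, 15.4 and 15.5 FPKM in Tshr+/+ 1, 2 and 3. Slc41a3, of a family of magnesium transporters, had 6.58, 17.8 and 7.04 FPKM in libraries 1, 2 and 3 labelled Tshr-/-, against 6.47, 8.13 and 5.999 FPKM in Tshr+/+ 1, 2 and 3. Neither was raised in Tshr+/+ 3, the library that came second for Ctsk and Acp5. Both were named after their values were seen, and Eno1b is a near copy of Eno1, so that the split of fragments between them is uncertain.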
